A study of Mus musculus with 20 samples.

Results

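The small leucine-rich proteoglycans considered here were decorin (Dcn), biglycan (Bgn), lumican (Lum), fibromodulin (Fmod), prolargin (Prelp), osteoglycin (Ogn), osteomodulin (Omd) and asporin (Aspn). A probe was taken as a member where its transcript accession mapped to one of these 8 symbols. Of the 8 genes, 7 had a probe, with 1 probe each, and all 7 were among the 24247 genes and transcripts tested. Prelp had no matched probe and was not analysed here. The samples were embryonic fibroblasts from mice of Balb/c background, grown with serum and with uridine, which keeps cells dividing when respiration fails. Treated cultures received actinonin at 150 µM for 6, 24, 48 or 72 h, and control cultures received the ethanol carrier at 3 µl/ml. Actinonin blocks peptide deformylase, the enzyme that trims the formyl group from new proteins in bacteria and mitochondria. Each of the 5 groups had 4 samples, 2 labelled with Cy3 and 2 with Cy5, and the RNA of each sample came from 4 pooled plates. The control is labelled 0 h and its harvest time is not given, so time in culture and actinonin cannot be told apart. All groups shared the strain and the medium, and the cells were cultured fibroblasts without the tissue in which these proteins are normally laid down.

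Small leucine-rich proteoglycans are secreted proteins with a curved core of leucine-rich repeats, most of which carry chondroitin, dermatan or keratan sulfate chains. Their cores bind collagen and set the width and spacing of fibrils, and several also hold growth factors such as TGF-beta in the matrix. Fibroblasts are a main source of them in connective tissue, with decorin and biglycan the most studied members.

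The promoters of 6 of the 8 genes were in the RefSeq table used here, on build GRCm38.p6, and none was listed for Dcn or Lum. The 250 bases before the start site are shown for 5 of them. Fmod is shown as the gene with the largest fall, Aspn, Omd and Ogn as neighbouring genes that fell from 24 h to 48 h, and Bgn as the gene with the smallest change at 48 h. Capitals mark matches, on either strand, to 7 motifs, namely TATAAA for the core promoter box, CCAAT for the factor NF-Y, GGGCGG for the core of an SP1 site, TGANTCA for AP-1, TGATGNAA for the factors ATF4 and CHOP, GGAATG for TEAD factors and TGTGGT for RUNX factors. The regions are chr1:134037004-134037253 for Fmod, chr13:49544193-49544442 for Aspn, chr13:49582212-49582461 for Omd, chr13:49607765-49608014 for Ogn and chrX:73483351-73483600 for Bgn, all on the plus strand and written 5′ to 3′.
Fmod: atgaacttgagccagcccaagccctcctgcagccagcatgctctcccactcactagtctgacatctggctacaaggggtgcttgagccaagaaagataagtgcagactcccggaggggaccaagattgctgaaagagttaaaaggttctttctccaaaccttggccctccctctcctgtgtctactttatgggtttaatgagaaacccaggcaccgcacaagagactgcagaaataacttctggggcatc
Aspn: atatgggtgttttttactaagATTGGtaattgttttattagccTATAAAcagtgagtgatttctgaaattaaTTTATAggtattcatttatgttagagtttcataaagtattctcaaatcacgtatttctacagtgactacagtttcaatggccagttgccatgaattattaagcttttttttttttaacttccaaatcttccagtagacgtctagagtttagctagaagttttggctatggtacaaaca
Omd: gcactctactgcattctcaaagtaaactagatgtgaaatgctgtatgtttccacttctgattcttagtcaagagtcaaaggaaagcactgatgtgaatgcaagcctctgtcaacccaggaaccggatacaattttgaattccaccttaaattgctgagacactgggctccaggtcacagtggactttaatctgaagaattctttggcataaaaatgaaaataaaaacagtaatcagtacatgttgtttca
Ogn: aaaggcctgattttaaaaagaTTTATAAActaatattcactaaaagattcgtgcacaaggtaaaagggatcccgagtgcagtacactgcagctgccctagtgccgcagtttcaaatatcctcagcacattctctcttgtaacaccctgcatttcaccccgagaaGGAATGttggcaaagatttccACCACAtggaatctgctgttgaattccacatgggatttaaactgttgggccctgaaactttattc
Bgn: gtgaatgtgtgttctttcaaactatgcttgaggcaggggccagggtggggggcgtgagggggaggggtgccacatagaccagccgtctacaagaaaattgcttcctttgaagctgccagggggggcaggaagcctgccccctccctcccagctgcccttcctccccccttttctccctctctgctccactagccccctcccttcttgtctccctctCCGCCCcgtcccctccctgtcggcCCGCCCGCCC
Of these windows, those of Fmod and Omd held no match to any of the 7 motifs. TATAAA was found in the windows of Aspn and Ogn and in 13% of 27025 promoters. In Ogn the matches on the 2 strands overlapped. CCAAT was found in Aspn and in Prelp and in 34.5% of promoters. GGGCGG occurred 3 times in Bgn, with 2 of the matches overlapping, and at least once in 32.9% of promoters. GGAATG and TGTGGT were found in Ogn, against 12.6% and 14.2% of promoters. TGANTCA and TGATGNAA, which 6.87% and 3.53% of promoters held, were in none of the 6 windows. The GC content was 30% for Aspn, 38.4% for Omd and 42% for Ogn, against a median of 52% over all promoters, and it was 51.2% for Fmod, 55.6% for Prelp and 64.4% for Bgn. A match describes letters in this window only.

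The 20 samples were read in pairs on 10 two-colour arrays, and each channel held 1 sample. In 18 samples 50.8% to 58.7% of spots stood well above background, and in the carrier and 48 h samples of array 10 66.4% and 70.5% did. Slide 1 carried 2 arrays with 2 carrier and 2 6 h samples, and slide 2 carried the other 8 arrays, with every sample of 24, 48 and 72 h. The fit held a term for slide, which was large for Dcn (1.12 on the log2 scale, adjusted p = 2.35e-05) and Lum (1.08, adjusted p = 2.99e-05). Sample values of the proteoglycan genes below are normalized log2 signals with the fitted dye and slide terms removed. The marker sums in this paragraph keep both terms, and 2 of the carrier samples were on slide 1. All 10 fibroblast markers were well above background in all 20 samples. The summed linear signal of this list, which holds Col1a1, Col1a2 and Col3a1, was 878160 to 1211900 in the carrier samples and 574510 to 857780 at 48 h. The summed signal of 7 epithelial and keratinocyte markers, with Krt8 never above background, was 1580 to 2046 in the carrier samples and 2450 to 2709 at 48 h. Of the 3 tested, Krt19 rose by 0.55 ± 0.08 at 48 h, and Krt5 and Krt14 did not pass. Smooth muscle markers, with Myocd never above background, summed to 336200 to 427390 in the carrier samples. They summed to 259010 to 291500 at 24 h and 344360 to 394140 at 48 h. Adipocyte markers, with Adipoq and Plin1 never above background, summed to 3686 to 3915 in the carrier samples and 4738 to 5299 at 24 h. At 24 h Lpl rose by 0.85 ± 0.09 and Fabp4, above background in 13 of 20 samples, fell by 0.75 ± 0.08. The sum of 9 chondrocyte markers, with Hapln1 and Matn1 never above background, was 2016 to 2296 in the carrier and 1816 to 1850 at 48 h, and that of 7 osteoblast markers was 1469 to 1658 and 1386 to 1461. The 3 tenocyte markers summed to 2806 to 4599 in the carrier and 4709 to 5004 at 72 h. Of these, Scx rose by 1.00 ± 0.09 at 72 h and Mkx fell by 0.75 ± 0.06. The time shown differs between these lists. Of other lists, Actc1, Ckm and Myh3 for skeletal muscle, Cdh5 for endothelium, and Cd53 and Ptprc for leukocytes were never above background. Of the markers with a probe, 0 of 6 for skeletal muscle, 2 of 5 for endothelium and 3 of 6 for leukocytes were above background in all 20 samples. Of the 4 leukocyte markers tested, Cd14 fell by 1.35 ± 0.08 and Itgam by 0.25 ± 0.07 at 72 h, and Csf1r and Adgre1 did not pass. The part of such cells in the results was not tested. In these bulk samples, fewer cells of a type and less RNA per cell cannot be told apart.

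At 48 h all 7 genes were lower than in the carrier control, and from 48 h to 72 h all 7 rose. Fmod, whose product binds collagen I fibrils and carries keratan sulfate, fell most, to 4.36-fold below the control at 48 h. Ogn, which encodes osteoglycin or mimecan, was the one gene with a rise against the control at 72 h that passed the test, by 1.65-fold. Counts of changed genes below come from limma fitted to all 20 samples, with an adjusted p under 0.05 (Benjamini-Hochberg, whole table). At 6 h 4 of 7 genes fell and 0 rose, also 0 at an unadjusted p under 0.05, while 11.1% of all genes tested fell and 13.7% rose. At 24 h 4 fell and 0 rose, with 1 rise at an unadjusted p under 0.05, against 19.1% and 21.2% of all genes tested. At 48 h 7 fell and 0 rose, also unadjusted, against 20.3% and 21.5%. With other processing choices 5 to 7 genes passed at 48 h, and Lum passed in 9 of 15 such fits. At 72 h 3 fell and 1 rose, against 22.5% and 25.2%. The median log2 change of the 7 genes was -0.23 at 6 h, -0.28 at 24 h, -0.91 at 48 h and -0.03 at 72 h, while that of all genes was within 0.01 of 0 each time. The 4 comparisons share their control samples.

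**Figure D1:**
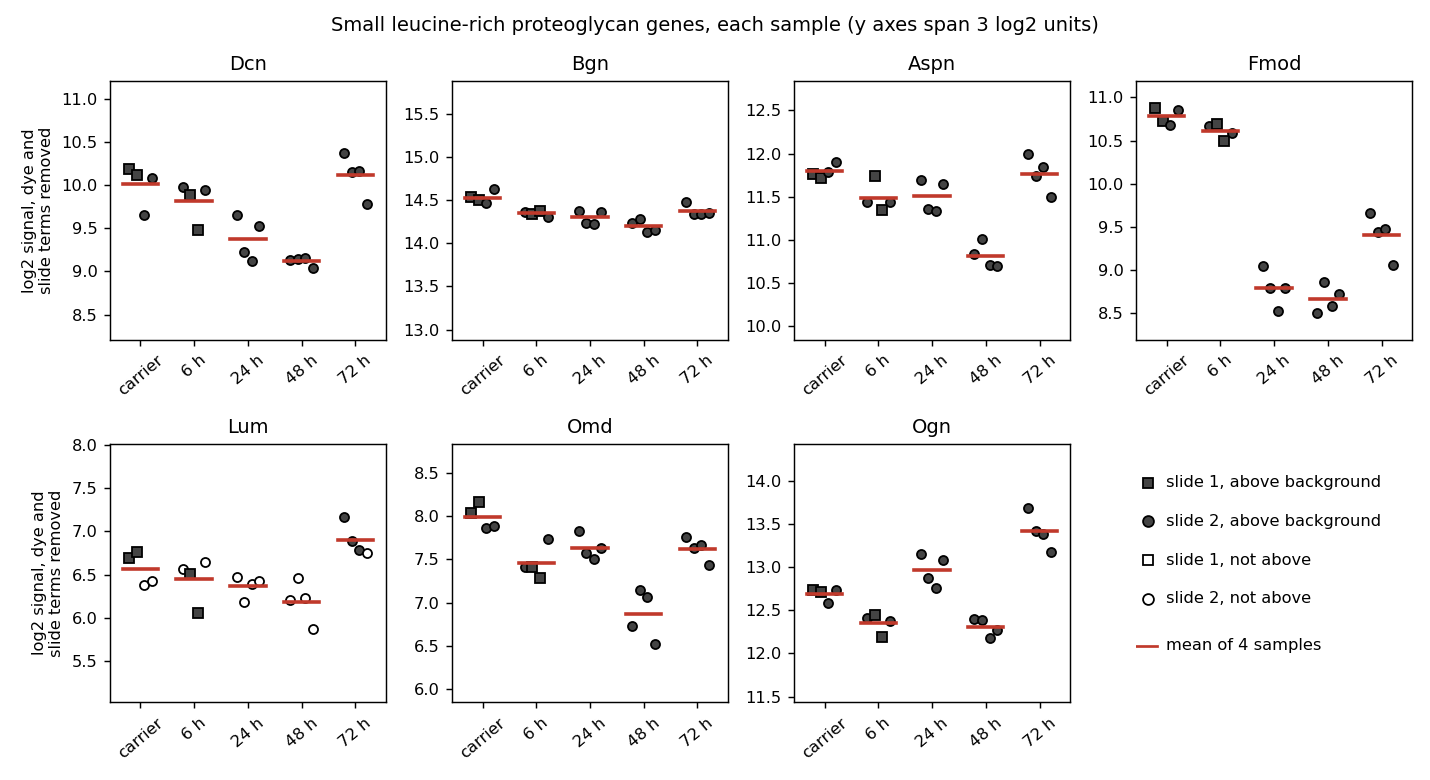
Normalized log2 signal of each of the 20 samples for the 7 genes, dye and slide terms removed, with bars at the means of 4 samples. Squares are slide 1, circles slide 2, and open symbols are not well above background, which occurs for Lum only. Fmod sits between 10.68 and 10.88 in the carrier and between 8.50 and 9.04 at 24 and 48 h.

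Between neighbouring times the genes split. From 6 h to 24 h Fmod fell, Ogn rose and the other 5 did not pass the test, where 16.4% of all genes tested fell and 16.5% rose. From 24 h to 48 h Aspn, Omd and Ogn fell and 0 rose, also unadjusted, where 6.35% fell and 5.76% rose. From 48 h to 72 h 7 rose and 0 fell, also unadjusted, where 12.9% rose and 10.3% fell. The median of the 7 genes over this step was 0.76, and it stayed at 0.76 with Lum at its bound. Among 14254 named genes, Ogn ranked 16, Dcn 25, Aspn 30, Omd 72 and Fmod 78 by size of rise, and Bgn ranked 2648. Lum, not above background at 48 h, was not ranked. Both last steps lay within slide 2. Without the slide term in the fit 4 of 7 rises passed, and those of Dcn (0.77, adjusted p = 0.0774), Bgn (0.18, adjusted p = 0.0750) and Lum (0.49, adjusted p = 0.277) did not, where 6.38% of all genes tested rose.

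**Figure D2:**
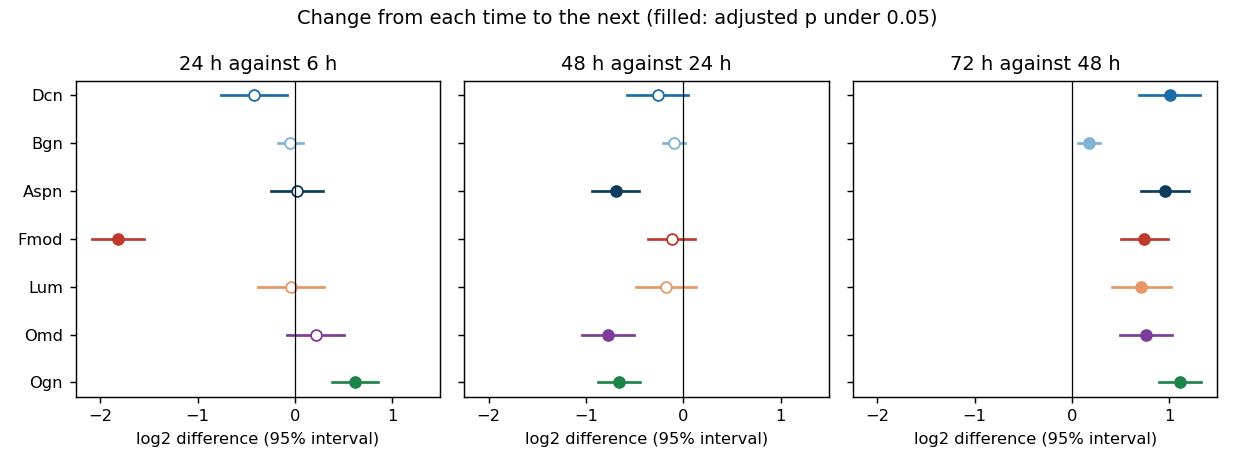
Log2 difference of each gene between successive times with its 95% interval. Filled points have an adjusted p under 0.05. All 7 points lie above 0 from 48 h to 72 h, and 3 of 7 are filled below 0 from 24 h to 48 h.

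Fmod gave log2 signals of 10.88, 10.72, 10.68 and 10.85 in the carrier samples and 10.67, 10.70, 10.50 and 10.59 at 6 h. At 24 h they were 9.04, 8.79, 8.52 and 8.80, at 48 h 8.50, 8.86, 8.59 and 8.72, and at 72 h 9.66, 9.43, 9.47 and 9.06. Every sample from 24 h on was below every carrier and 6 h sample, and the 72 h samples lay between the 2 levels without overlap. The log2 change against the carrier was -0.18 ± 0.10 at 6 h (± is the standard error, each group having n = 4), which did not pass the test with limma (adjusted p = 0.233). Fmod fell by 2.00 ± 0.13 at 24 h (adjusted p = 1.02e-09), and the change was -2.12 ± 0.11 at 48 h (adjusted p = 6.97e-11) and -1.38 ± 0.13 at 72 h (adjusted p = 5.92e-08). The fall came between 6 h and 24 h, at -1.82 ± 0.13 (adjusted p = 6.81e-09), and the step to 48 h was -0.12 ± 0.11 (adjusted p = 0.545). Fmod then rose by 0.74 ± 0.11 to 72 h (adjusted p = 1.77e-04), a 1.67-fold increase that left it 2.61-fold below the control. Among named genes, Fmod ranked 5 by size of fall at 24 h and 4 at 48 h. In order from low to high the groups were 48, 24, 72 and 6 h and the carrier, and the differences between 48 and 24 h, and between 6 h and the carrier, did not pass the test. These calls held in all 20 fits without 1 sample.

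Dcn encodes decorin, which coats collagen fibrils and binds TGF-beta. Its log2 signals were 10.18, 10.11, 9.65 and 10.08 in the carrier samples and 9.98, 9.89, 9.48 and 9.94 at 6 h. They were 9.66, 9.23, 9.12 and 9.52 at 24 h, 9.13, 9.14, 9.16 and 9.04 at 48 h, and 10.38, 10.15, 10.17 and 9.78 at 72 h. The 48 h samples were below every carrier, 6 h and 72 h sample, while 24 h and the carrier overlapped by 1 sample each. Against the carrier Dcn changed by -0.23 ± 0.13 at 6 h (adjusted p = 0.263), -0.65 ± 0.16 at 24 h (adjusted p = 0.00376), -0.91 ± 0.14 at 48 h (adjusted p = 4.80e-05) and 0.09 ± 0.16 at 72 h (adjusted p = 0.677). From 48 h to 72 h it rose 2.00-fold, by 1.00 ± 0.15 (adjusted p = 1.15e-04). The steps from 6 h to 24 h (-0.42 ± 0.16, adjusted p = 0.0552) and from 24 h to 48 h (-0.26 ± 0.15, adjusted p = 0.274) did not pass. From low to high the order was 48, 24 and 6 h, carrier and 72 h, and no difference between neighbours in it passed the test.

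Bgn encodes biglycan, the closest relative of decorin, with 2 glycosaminoglycan chains on its core. Its signals ranged from 14.46 to 14.63 in the carrier, 14.31 to 14.38 at 6 h, 14.23 to 14.37 at 24 h, 14.14 to 14.29 at 48 h and 14.34 to 14.47 at 72 h. At 6, 24 and 48 h every sample was below every carrier sample, and at 72 h the groups overlapped. The changes against the carrier were small: -0.18 ± 0.05 at 6 h, -0.23 ± 0.06 at 24 h, -0.33 ± 0.05 at 48 h and -0.15 ± 0.06 at 72 h. With limma the adjusted p-values were 0.0121, 0.00562, 7.88e-05 and 0.0468. The 48 h value is a 1.25-fold decrease. From 48 h to 72 h Bgn rose by 0.17 ± 0.06 (adjusted p = 0.0309). This rise passed in 8 of 16 fits with other processing choices. In the authors' deposited values it did not (0.14 ± 0.06, adjusted p = 0.0748). The order from low to high was 48, 24, 6 and 72 h and the carrier, and among its neighbours only 72 h and the carrier passed the test, with overlapping samples. Bgn was the one member with a dye term past the threshold (-0.38 for Cy5 against Cy3, adjusted p = 5.62e-08).

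Aspn encodes asporin, which carries a run of aspartates in place of sugar chains near its start and binds TGF-beta. Its signals were 11.77, 11.72, 11.79 and 11.90 in the carrier samples, 11.43, 11.73, 11.34 and 11.44 at 6 h and 11.70, 11.36, 11.33 and 11.65 at 24 h. At 48 h they were 10.84, 11.01, 10.71 and 10.69, and at 72 h 11.99, 11.73, 11.85 and 11.49. The 48 h samples were below all 16 others. Against the carrier Aspn changed by -0.31 ± 0.11 at 6 h (adjusted p = 0.0410), -0.28 ± 0.13 at 24 h (adjusted p = 0.0843), -0.98 ± 0.11 at 48 h (adjusted p = 1.25e-06) and -0.03 ± 0.13 at 72 h (adjusted p = 0.877). It fell by 0.70 ± 0.12 from 24 h to 48 h (adjusted p = 9.54e-04) and rose by 0.95 ± 0.12 to 72 h (adjusted p = 2.08e-05), a 1.94-fold increase. Above 48 h, the differences between neighbours in the order 6, 24 and 72 h and carrier did not pass the test.

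Omd encodes osteomodulin, or osteoadherin, a keratan sulfate proteoglycan known from bone. Its signals were 8.04, 8.17, 7.86 and 7.89 in the carrier samples, 7.41, 7.41, 7.29 and 7.74 at 6 h and 7.84, 7.57, 7.50 and 7.63 at 24 h. They were 6.72, 7.14, 7.07 and 6.52 at 48 h and 7.76, 7.64, 7.66 and 7.44 at 72 h. Every treated sample was below every carrier sample, and the 48 h samples were below all others. Against the carrier the changes were -0.61 ± 0.12 at 6 h (adjusted p = 7.25e-04), -0.39 ± 0.14 at 24 h (adjusted p = 0.0319), -1.17 ± 0.12 at 48 h (adjusted p = 5.01e-07) and -0.41 ± 0.14 at 72 h (adjusted p = 0.0229). The 48 h value is a 2.24-fold decrease. Omd fell by 0.77 ± 0.13 from 24 h to 48 h (adjusted p = 9.14e-04) and rose by 0.76 ± 0.13 to 72 h (adjusted p = 3.37e-04). In the order 48, 6, 72 and 24 h and carrier, the differences between 6 and 72 h, and between 72 and 24 h, did not pass the test.

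Ogn passed the test in every step, lower at 6 h, higher at 24 h, lower at 48 h and higher at 72 h than in the group before. Its signals were 12.74, 12.72, 12.58 and 12.73 in the carrier samples, 12.41, 12.45, 12.19 and 12.37 at 6 h and 13.16, 12.88, 12.76 and 13.08 at 24 h. They were 12.40, 12.39, 12.17 and 12.27 at 48 h and 13.69, 13.42, 13.38 and 13.18 at 72 h. The 6 h and 48 h samples were below every carrier sample, and the 24 h and 72 h samples were above every one. Against the carrier Ogn changed by -0.34 ± 0.09 at 6 h (adjusted p = 0.0110), 0.27 ± 0.11 at 24 h (adjusted p = 0.0627), -0.39 ± 0.10 at 48 h (adjusted p = 0.00404) and 0.72 ± 0.11 at 72 h (adjusted p = 3.47e-05). The steps were a rise of 0.61 ± 0.11 from 6 h to 24 h (adjusted p = 3.60e-04), a fall of 0.66 ± 0.10 to 48 h (adjusted p = 5.62e-04) and a rise of 1.11 ± 0.10 to 72 h (adjusted p = 1.91e-06), or 2.16-fold. In the order 48 h, 6 h, carrier, 24 h and 72 h, the difference between 48 and 6 h did not pass the test, nor did that between the carrier and 24 h, whose samples did not overlap.

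Lum encodes lumican, a keratan sulfate proteoglycan of cornea and skin. It was well above background in 2 carrier, 2 6 h and 3 72 h samples and in no sample of 24 or 48 h, so its differences are given as bounds. The carrier and 6 h groups had 2 samples each on slide 1, where the fitted Lum signal was 1.08 higher, and the later groups had none. Whether detection in the carrier and 6 h groups followed the slide was not tested. Its signals were 6.38 to 6.76 in the carrier, 6.06 to 6.65 at 6 h, 6.19 to 6.47 at 24 h, 5.87 to 6.46 at 48 h and 6.75 to 7.17 at 72 h. The 72 h samples were above all samples of the other treated groups, and the carrier overlapped all 4. As a bound, the carrier mean was 1.19-fold above that of 48 h (fitted change -0.41 ± 0.14, adjusted p = 0.0260). Only 2 of 4 carrier samples were above background, so this bound is not strict. With limma on slide 2 alone the change was -0.26 (adjusted p = 0.117), which did not pass. The 72 h mean, with 3 of 4 samples above background, was likewise 1.50-fold above that of 48 h (fitted change 0.71 ± 0.15, adjusted p = 0.00168). It was 1.45-fold above that of 24 h (adjusted p = 0.00569). At 6, 24 and 72 h the fitted changes against the carrier were -0.19, -0.23 and 0.30, with adjusted p-values of 0.348, 0.272 and 0.135. No difference between neighbours in the order 48, 24 and 6 h, carrier and 72 h passed the test.

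**Figure D3:**
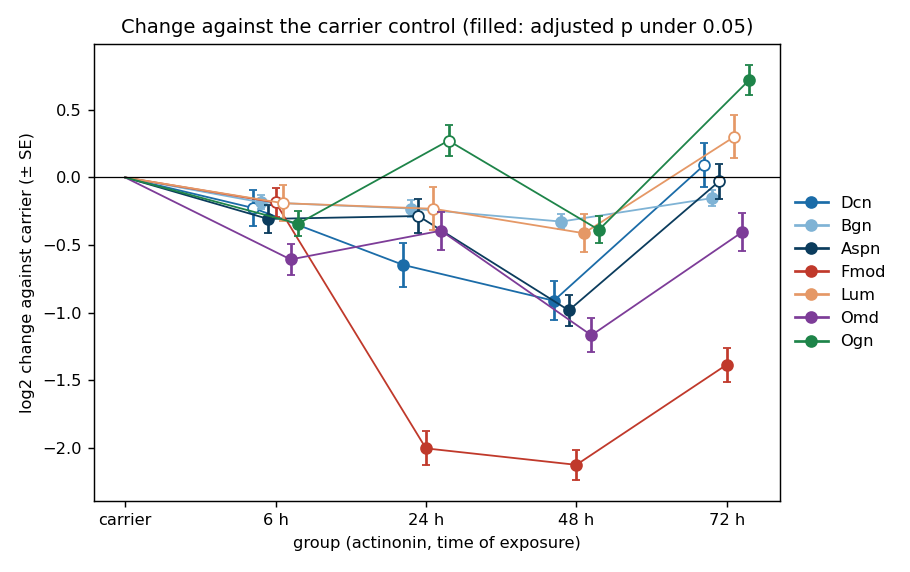
Log2 change of the 7 genes against the carrier by time of exposure, with standard errors. Filled points have an adjusted p under 0.05. All 7 are filled below 0 at 48 h, and Ogn is filled above 0 at 72 h at 0.72.

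By position, Aspn, Omd and Ogn follow one another on chromosome 13 with Ecm2 before them, Dcn and Lum are neighbours on chromosome 10, Prelp and Fmod on chromosome 1, and Bgn lies on X between Haus7 and Atp2b3, as RefSeq lists them. The 3 genes on chromosome 13 were the ones that fell from 24 h to 48 h, ranked 18 (Omd), 31 (Aspn) and 39 (Ogn) of 14254 named genes by size of fall. They had parted from 6 h to 24 h, when Ogn rose by 0.61, Omd changed by 0.21 ± 0.14 (adjusted p = 0.275) and Aspn by 0.02 ± 0.13 (adjusted p = 0.922). Ecm2 was above background in 10 samples, with changes against the carrier of -0.01, 0.03, 0.03 and 0.05 that did not pass.

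At 6 h the changes of Omd, Ogn, Bgn and Aspn had the same direction within each slide, and none passed the test in these smaller fits. The 4 samples of slide 1 alone called 12 of 24247 genes, all higher, and 0 lower. Of the 7 genes 0 passed and 4 fell at an unadjusted p under 0.05, by limma. With slide 2 alone 0 passed, where 8.65% of all genes tested fell at an adjusted p under 0.05. At an unadjusted p under 0.05, 3 of the 7 genes fell, and the share of all genes at that threshold is not given. Omd was -0.75 ± 0.11 on slide 1 (adjusted p = 0.111) and -0.46 ± 0.17 on slide 2 (adjusted p = 0.0854). Aspn was -0.21 ± 0.14 and -0.44 ± 0.15, Ogn -0.41 ± 0.13 and -0.25 ± 0.14, and Bgn -0.16 ± 0.11 and -0.22 ± 0.08. Dcn was -0.47 ± 0.15 on slide 1 and 0.07 ± 0.18 on slide 2, and Lum was -0.44 and 0.10. The difference between slides in the 6 h change did not pass for any member. Its unadjusted p was 0.0411 for Dcn and 0.0269 for Lum, with adjusted p-values of 1.00 and 0.996. At 48 h on slide 2 alone, 6 of 7 genes fell, where 21.5% of all genes tested fell and 22.5% rose. The changes were -2.12 for Fmod, -1.09 for Omd, -1.05 for Aspn, -0.76 for Dcn, -0.34 for Bgn and -0.34 for Ogn, and Lum was -0.26 (adjusted p = 0.117). On slide 2 alone the calls of Omd were lost at 24 h (-0.32, adjusted p = 0.122) and 72 h (-0.33, adjusted p = 0.0982), and that of Bgn at 72 h (-0.17, adjusted p = 0.0566). Aspn was then called at 24 h (-0.35, adjusted p = 0.0497), Dcn from 6 h to 24 h (-0.57, adjusted p = 0.0131) and Lum at 72 h (0.45, adjusted p = 0.0209).

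**Figure D4:**
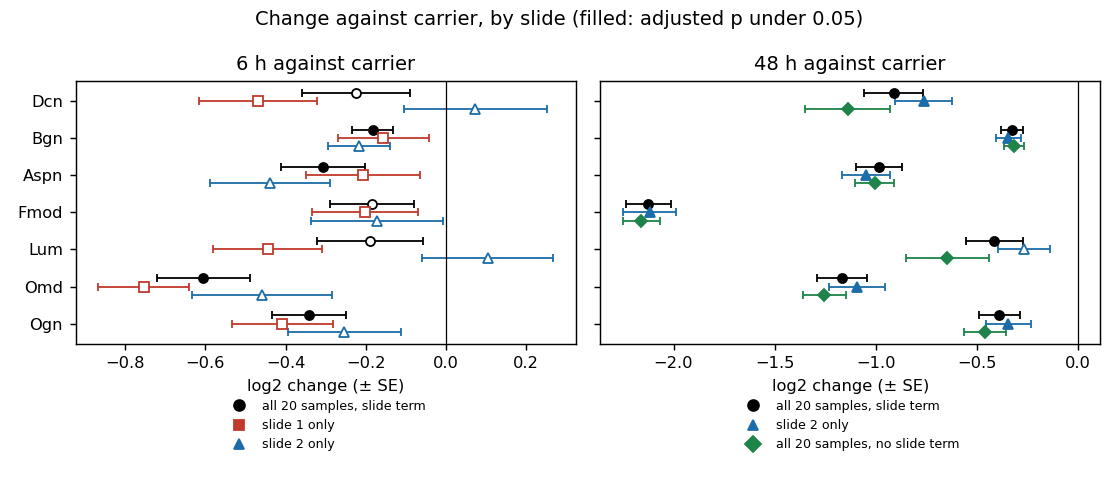
Log2 change against the carrier at 6 h and 48 h, with standard errors, from all 20 samples and from each slide or without the slide term. Filled points have an adjusted p under 0.05. At 6 h no point of a single slide is filled, and Dcn and Lum lie on both sides of 0.

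Single samples decided some of the smaller calls. At 6 h, 4 genes became 2 without the 6 h sample 2_Cy3, which ended the calls of Ogn (-0.26, adjusted p = 0.0734) and Aspn (-0.24, adjusted p = 0.159), or without the carrier sample 2_Cy5, which ended those of Bgn (-0.15, adjusted p = 0.0567) and Aspn (-0.27, adjusted p = 0.125). Aspn at 6 h was also lost without carrier 1_Cy3, 2_Cy3 or 1_Cy5, without 6 h 1_Cy3 or 2_Cy5, or without 48 h 1_Cy3, with values of -0.27 to -0.35. Dcn at 6 h was called without carrier 2_Cy3 (-0.36, adjusted p = 0.0470). At 24 h Bgn was lost without carrier 2_Cy5 (-0.17, adjusted p = 0.0576), and Omd without 24 h 2_Cy3, 1_Cy5 or 2_Cy5, 6 h 2_Cy3 or 2_Cy5, or carrier 1_Cy5 (-0.33 to -0.39). Ogn was called at 24 h without 24 h 2_Cy3 or 1_Cy5, 6 h 2_Cy3 or 72 h 1_Cy3 (0.27 to 0.33), and Aspn without 24 h 1_Cy3 or 6 h 1_Cy5 (-0.36 and -0.35). Lum at 48 h was lost without 48 h 2_Cy3 or 2_Cy5, carrier 1_Cy5 or 6 h 2_Cy5 (-0.30 to -0.40). At 72 h the 4 calls became 2 without 72 h 2_Cy5, which ended those of Bgn (-0.15, adjusted p = 0.0788) and Omd (-0.35, adjusted p = 0.0656). Bgn at 72 h was also lost without carrier 1_Cy3 or 2_Cy5, 6 h 1_Cy3, 1_Cy5 or 2_Cy5, 48 h 1_Cy3 or 2_Cy5, or 72 h 2_Cy3 or 1_Cy5 (-0.10 to -0.16). Without 6 h 2_Cy3, Lum was called at 72 h (0.40, adjusted p = 0.0201). Dcn was called from 6 h to 24 h without carrier 1_Cy3, 2_Cy3 or 1_Cy5, 6 h 2_Cy3, 24 h 1_Cy3, or 72 h 1_Cy3 or 2_Cy5 (-0.42 to -0.52). From 48 h to 72 h only Bgn was lost, without 48 h 1_Cy3, 2_Cy3 or 2_Cy5 or 72 h 1_Cy3 or 2_Cy5 (0.13 to 0.18), and the other 6 rises were called in all 20 such fits.

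The relatives of these genes did not follow one direction. All 10 listed had a probe and 7 were tested, while Epyc, Kera and Nyx were too dim. Podn, which encodes podocan, rose by 0.88 ± 0.12 at 24 h, 0.83 ± 0.11 at 48 h and 1.47 ± 0.12 at 72 h, and from 48 h to 72 h by 0.64 ± 0.11. Chadl, for a chondroadherin-like protein, rose by 0.72 ± 0.06, 0.48 ± 0.06 and 0.64 ± 0.06 at these times. Podnl1, for a podocan-like protein, fell by 0.23 ± 0.07 at 6 h and then by 0.82 ± 0.08, 0.73 ± 0.07 and 0.97 ± 0.08. Optc, for opticin, fell by 1.11 ± 0.16, 0.49 ± 0.14 and 1.10 ± 0.16 from 24 h on. Chad, Ecm2 and Tsku did not pass at any time. Against the carrier 1 of 7 fell at 6 h and 0 rose, also unadjusted, where 11.1% of all genes tested fell and 13.7% rose. At each later time 2 rose and 2 fell, which is 28.6% each way. Of all genes tested 19.1% to 22.5% fell and 21.2% to 25.2% rose at these times, so the counts are near those shares. The sign of the list's median, which was within 0.04 of 0 each time, changed between processing alternatives.

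For the lists that follow, the shares of all genes tested that fell against the carrier were 11.1%, 19.1%, 20.3% and 22.5% at the 4 times, and those that rose were 13.7%, 21.2%, 21.5% and 25.2%. From 48 h to 72 h 12.9% rose and 10.3% fell.

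Of 34 listed genes that build the glycosaminoglycan chains, 30 were tested. At 6 h 9 fell and 0 rose, also unadjusted, at 24 h 13 fell and 2 rose, at 48 h 20 fell and 3 rose, and at 72 h 14 fell and 4 rose, with medians of -0.08, -0.16, -0.32 and -0.18. The falls were 30%, 43.3%, 66.7% and 46.7% of the list. Ugdh, which makes the UDP-glucuronic acid of the chains, fell by 0.53 ± 0.05 at 24 h, 0.66 ± 0.05 at 48 h and 0.74 ± 0.05 at 72 h. Papss1, which makes the sulfate donor, fell by 0.52 ± 0.05 at 24 h and 0.55 ± 0.05 at 48 h. Pxylp1, a phosphatase that acts on the xylose of the linker, fell by 0.50 ± 0.08, 0.83 ± 0.09, 1.13 ± 0.08 and 1.30 ± 0.09 over the 4 times. Among sulfotransferases, Chst12 fell by 0.71 ± 0.07 and Chst1 by 0.55 ± 0.05 at 6 h, Chst2 by 0.76 ± 0.09 at 24 h, and Chst11 by 1.12 ± 0.11 at 72 h. The chain polymerising factor gene Chpf2 fell by 0.61 ± 0.05 at 6 h and 0.69 ± 0.05 at 48 h. In the last step 8 rose and 1 fell, with a median of 0.03.

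Of 17 listed collagens of the fibrils, to which these proteoglycans bind, and of their surface, 14 were tested. At 6 h 2 fell and 0 rose, with 1 rise unadjusted. At 24 h 8 fell and 1 rose, at 48 h 10 fell and 2 rose, and at 72 h 7 fell and 2 rose. The falls were 14.3%, 57.1%, 71.4% and 50.0% of the list. Col1a1, for the main chain of collagen I, fell by 0.86 ± 0.09 at 24 h, 1.46 ± 0.08 at 48 h and 0.79 ± 0.09 at 72 h. Col3a1 fell by 0.34 ± 0.09 at 6 h, 0.75 ± 0.11 at 24 h and 1.16 ± 0.10 at 48 h. Col11a1 fell by 0.75 ± 0.10 and 1.07 ± 0.09 at 24 and 48 h, and Col6a1, for a chain of beaded filaments, by 0.82 ± 0.07 at 48 h and 0.39 ± 0.08 at 72 h. Col6a2 fell by 0.26 ± 0.09 at 6 h and Col5a1 by 0.40 ± 0.08 at 72 h. Col5a3 rose by 0.66 ± 0.09 at 24 h and 1.09 ± 0.09 at 72 h. The 2 rises at 48 h were Col5a3 (0.33 ± 0.08) and Col11a2 (0.44 ± 0.09), given there after their values were seen. From 48 h to 72 h 8 rose and 0 fell, also unadjusted, with a list median of 0.40, against 0.76 for the 7 proteoglycan genes. Which of these lists differed from the proteoglycan genes was not tested.

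Of 17 tested genes for cross-linking and maturation of collagen, 6 fell at 6 h, 14 at 24 h and 12 at 48 h, and 0 rose. The rises at an unadjusted p under 0.05 were 1, 0 and 1. At 72 h 9 fell and 1 rose. The falls were 35.3%, 82.4%, 70.6% and 52.9% of the list. Pcolce2, for an enhancer of propeptide cleavage, fell by 1.62 ± 0.08 at 24 h, 1.68 ± 0.07 at 48 h and 1.95 ± 0.08 at 72 h. Loxl3, a lysyl oxidase gene, fell by 1.30 ± 0.08, 1.47 ± 0.07 and 1.83 ± 0.08 at the same times. P4hb, a subunit of prolyl hydroxylase, fell by 0.37 ± 0.07, 0.86 ± 0.08, 1.12 ± 0.07 and 0.79 ± 0.08 over the 4 times. The lysyl oxidase gene Loxl1 fell by 0.42 ± 0.08 at 6 h and 0.96 ± 0.08 at 48 h. P4ha1, for another prolyl hydroxylase subunit, fell by 0.29 ± 0.06 and the propeptidase gene Adamts14 by 0.27 ± 0.06 at 6 h, and P4ha3 by 0.96 ± 0.08 at 24 h and 0.84 ± 0.08 at 72 h. P4ha1 was the 1 rise at 72 h (0.57 ± 0.08), given there after its value was seen. In the last step 11 rose and 2 fell, with a median of 0.30.

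Proteases described as cutting these proteoglycans moved both ways. Of 14 listed, 11 were tested, and 2 rose and 2 fell at 6 h, 1 and 7 at 24 h, 1 and 8 at 48 h, and 5 and 5 at 72 h. The falls were 18.2%, 63.6%, 72.7% and 45.5% of the list. Htra1, a secreted serine protease gene, rose by 0.39 ± 0.05, 1.48 ± 0.06, 1.51 ± 0.05 and 1.66 ± 0.06 over the 4 times. Tll1, a tolloid-like relative of Bmp1, fell by 1.52 ± 0.14 at 24 h, 1.11 ± 0.13 at 48 h and 1.84 ± 0.14 at 72 h. Adamts1 and Adamts5, aggrecanase genes, fell by 1.17 ± 0.12 and 1.02 ± 0.11 at 6 h, and Adamts1 by 0.93 ± 0.13 at 48 h. In the last step they rose by 1.50 ± 0.13 and 1.11 ± 0.12, which left Adamts1 above the carrier by 0.57 ± 0.14 (adjusted p = 0.00257). The gelatinase gene Mmp9 rose by 0.58 ± 0.15 at 6 h, with later changes of -0.64, -0.67 and -0.68 that passed as well. Bmp1, which trims procollagen and biglycan, fell by 0.34 ± 0.07 at 24 h and 0.48 ± 0.07 at 72 h. Mmp3, above background in 8 of 20 samples, had fitted changes of -0.77, -0.90 and -0.97 from 24 h on that passed, but its dim samples leave their size unmeasured. The same holds for Mmp13, above background in 5 of 20 samples, with -0.51, -0.68 and -0.69. Both genes are counted among the falls from 24 h on. The list's median at 72 h was 0.28, and it turned below 0 without the filter on dim probes (-0.04) or without the slide term (-0.05).

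Of 24 listed ligands and receptors, 19 were tested. At 6 h 5 fell and 2 rose, at 24 h 10 fell and 0 rose, also unadjusted, at 48 h 10 fell and 1 rose, and at 72 h 5 fell and 1 rose. The falls were 26.3%, 52.6%, 52.6% and 26.3% of the list, the last near the share of all genes. Tgfb3, a growth factor bound by decorin and biglycan, fell by 0.29 ± 0.06, 0.92 ± 0.08, 0.90 ± 0.07 and 0.86 ± 0.08 over the 4 times, while Tgfb2 rose by 0.67 ± 0.07 at 72 h. The receptor gene Tgfbr2 fell by 0.31 ± 0.07 at 6 h and 0.45 ± 0.07 at 48 h. Bmp4 fell by 0.62 ± 0.10 at 6 h and 1.08 ± 0.10 at 48 h, and Met, a receptor that decorin binds, by 0.59 ± 0.08 at 24 h. Pdgfb, for a growth factor chain, fell by 0.71 ± 0.11 at 24 h. The hyaluronan receptor gene Cd44 fell by 0.94 ± 0.11, 0.69 ± 0.10 and 0.90 ± 0.11 from 24 h on.

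With slide 1 alone, where no gene of the whole table was called lower, 0 genes of the 6 lists were called by limma at 6 h, with 3 falls at an unadjusted p under 0.05 in chain synthesis, 2 in cross-linking, 1 in the collagens and 1 in the ligands and receptors. The proteases had 2 falls and 1 rise unadjusted, and the relatives 0 of either. With only the 6 h and carrier samples, 5 chain synthesis genes fell. Of all 24247 genes tested, 1061 fell in that fit, against 2700 in the fit reported. Loess without scaling between arrays gave 8 falls and 1 rise in chain synthesis and 6 falls in the ligands and receptors at 24 h. Of all genes tested, 2606 fell and 3516 rose with it at 24 h, against 4631 and 5131 in the fit reported. Without the slide term the collagens had 5 falls and 0 rises at 24 h and 4 falls and 1 rise at 72 h. Of all genes tested 12.1% then fell at 24 h and 16.5% at 72 h, against 19.1% and 22.5% with the term. The shares that rose were 16.1% and 21.1%, against 21.2% and 25.2%. On slide 2 alone the ligands and receptors had 8 falls and 2 rises at 72 h. Of all genes tested 23.2% fell and 25.5% rose there, against 22.5% and 25.2% in the fit reported. Whether the list counts moved more than those of all genes was not tested.

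**Figure D5:**
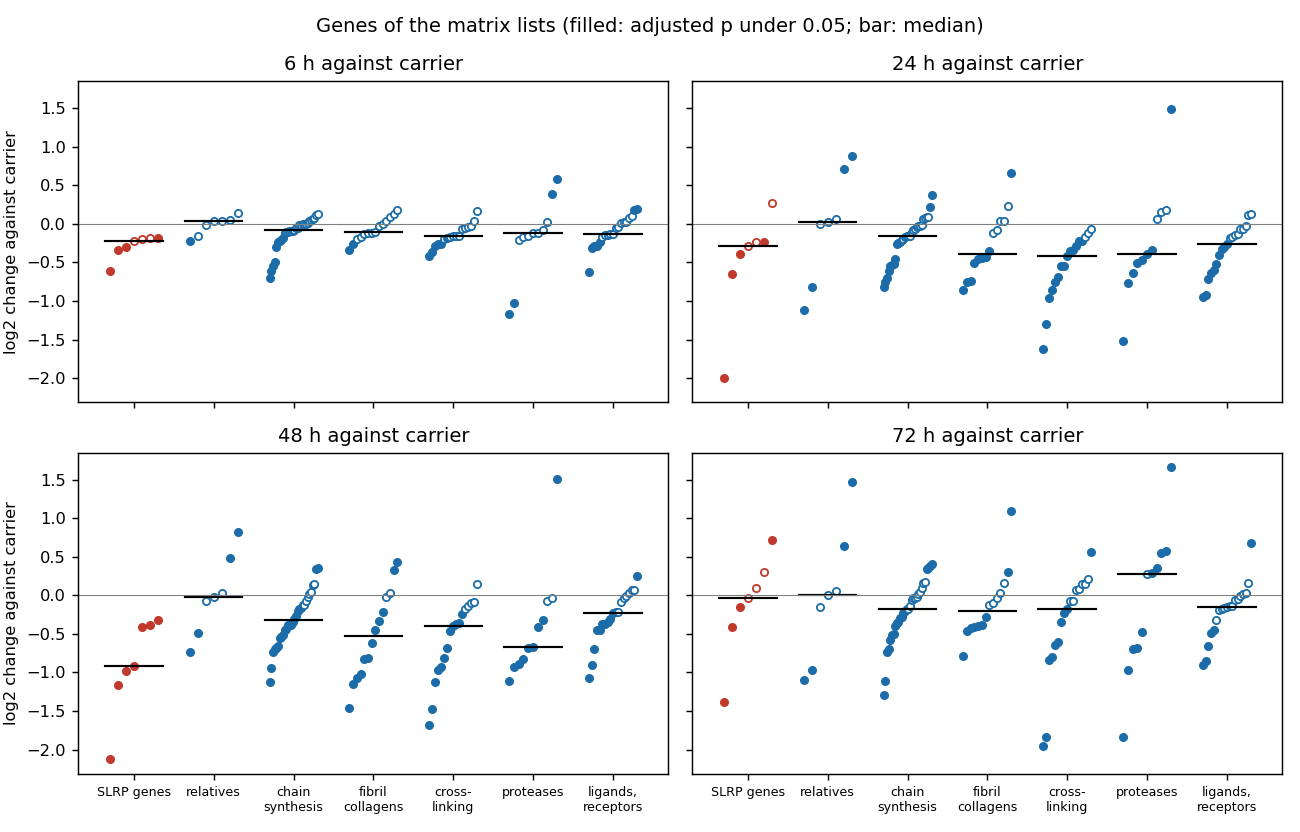
Log2 change against the carrier of each tested gene, in panels by time, for the 7 proteoglycan genes (red) and 6 lists of related genes (blue). Filled points have an adjusted p under 0.05 and bars are medians. At 48 h the medians are -0.91 for the proteoglycan genes, -0.53 for the collagens and -0.02 for the relatives.

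For the 6 members above background in all samples, the named genes with the most similar profile were ranked by Pearson's r over 20 samples, out of 14247 candidates. Such r values describe profiles that share arrays and the same group differences. For Dcn the closest were Clu (0.968), Scube3 (0.943) and Lama4 (0.934), and for Bgn Ly6e (0.970), Vegfd (0.960) and Vangl1 (0.941). For Fmod they were Vcam1 (0.974), Epha3 (0.974) and Pdgfrl (0.973), each with smaller falls than Fmod, at -0.80, -0.89 and -0.77 at 24 h. For Ogn they were Ephb6 (0.963), Mmp2 (0.950) and Pcdhb21 (0.948). For Omd they were Arhgap28 (0.930), Cd248 (0.890) and Lpcat3 (0.877), and for Aspn Vcan (0.961), Mrc2 (0.937) and Gas6 (0.932). Clu encodes clusterin, Vcan the large proteoglycan versican and Mmp2 a gelatinase.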

How the data were processed

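RNA of 20 samples was hybridised to 10 Agilent two-colour arrays, 1 sample per channel. The deposited scanner files give the median signal and background intensity of each of 62976 spots, per the file headers, read by Feature Extraction 10.7.3.1 for slide 1 and 11.0.1.1 for slide 2. The deposited value table gives log2 intensity as processed by the authors. The submitters' processing notes name R 2.15, limma and mm9.

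From the intensities, background was corrected by normexp with offset 50, followed by loess within arrays and Aquantile between arrays with limma 3.58.1 in R 4.3.3. Control and outlier-flagged spots had weight 0, control spots were dropped, and spots of a probe were averaged. Probes that 4 or more of the 20 samples showed well above background were kept, with the brightest one standing for its gene, leaving 24247 genes and transcripts, 14254 of them named. Limma was fitted over 20 samples with group, dye and slide as terms and array as a random block (correlation 0.251), with eBayes, two-sided, and Benjamini-Hochberg adjustment over the whole table, called under 0.05. The method was tested on simulated data.

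Slide, scan and software version moved together and are not separable. The labels call the samples of a group independent. The number of arrays limits precision. Bounds for Lum set the bright group's mean against, per array, the higher of the lowest signal well above background and its own signal. The bright group's mean kept its samples not above background, so these bounds are not strict.

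The genes and lists were chosen with earlier results of these data known. By rule, the genes named were every proteoglycan gene and relative with a probe, up to 4 called genes of each list with the smallest adjusted p at each time against the carrier, and the 3 named genes of most similar profile. Mmp13 and the single marker genes given with a change were added after their values were seen. Promoters came from RefSeq's table on GRCm38.p6. Alternatives covered background, scaling, filter, probe choice, slide, dye, array, the deposited table and leaving out each sample.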

Additional observations from a re-analysis of the deposited data

Results flagged for a closer look

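The 4 values of each of 7 genes in each of 5 groups were searched for a sample far from the other 3 by Dixon's criterion at 95%. Of these 35 groups, 2 had one, and chance gives about 1 in 20. For Bgn at 72 h, the sample 1_Cy3 had a log2 signal of 14.473 while the others lay at 14.34 to 14.35. For Ogn in the carrier, the sample 2_Cy3 had 12.584 while the others lay at 12.72 to 12.74.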

How the results depend on the processing

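No called change of a proteoglycan gene turned direction under any alternative run. The alternatives other than leaving out 1 sample included some with fewer samples, on a single slide, without an array or with only the groups compared. These alternatives gave 784 fits of a gene in a comparison. Of these, 707 kept direction and call, 54 lost the call, 11 gained one and 12 changed the sign of an uncalled value. Of 980 with 1 sample left out, the counts were 916, 37, 15 and 12. The cause was not tested.

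The number of proteoglycan genes called from 48 h to 72 h was 4 without the slide term. Over all alternatives it was 4 to 7 for this step and 5 to 7 at 48 h. At 6 h it was 0 on slide 1 only, 0 on slide 2 only and 2 without the dye term, and at 24 h it was 2 without the dye term and 2 with only the samples of the 2 groups. With 1 sample left out it was 2 to 4 at 6 h and 2 to 5 at 72 h. Signs turned for Lum from 6 h to 24 h (0.026 with plain subtraction, 0.025 with quantile scaling, 0.011 in the deposited table) and for Aspn at 72 h (0.018 with loess only). Without the slide term they turned for Dcn (-0.37) and Lum (-0.16) at 72 h, Aspn from 6 h to 24 h (-0.028) and Lum from 24 h to 48 h (0.043). On slide 2 only they turned for Dcn (0.073) and Lum (0.10) at 6 h, and without array 10 for Dcn at 72 h (-0.13). With 1 sample left out the ranges were -0.14 to 0.10 for Lum and -0.050 to 0.095 for Aspn from 6 h to 24 h, and -0.12 to 0.054 for Aspn and -0.13 to 0.19 for Dcn at 72 h.

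Pairing between groups was checked by replicate label, which is number and dye together. Of 40 pairs of samples with the same label in different groups, 1 had a correlation of deviations over 0.1. The range was -0.559 to 0.171, and for 0 samples did the best match in other groups have the same label. Samples of the same number and different dye were not compared, so whether they belong together was not tested. With the replicate block the calls numbered 4, 5, 7 and 3 at 6, 24, 48 and 72 h and 3, 3 and 7 for the steps, and Aspn from 6 h to 24 h was -0.0046.

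Over the whole table, loess without scaling gave 6122 calls at 24 h (9762 in the fit reported), 4447 from 6 h to 24 h (7964), 342 from 24 h to 48 h (2936, with 96 higher and 246 lower against 1396 and 1540) and 1795 from 48 h to 72 h (5623, with 1252 and 543 against 3121 and 2502). Without the slide term the 3 steps gave 5280, 848 and 2652. At 6 h, slide 1 only gave 12, all higher, and the samples of the 2 groups alone 2758. From 24 h to 48 h there were 1788 without the dye term and 1794 without the 24 h sample 2_Cy5. Lum lies near background, which limits it to bounds that are not strict.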
